A study of Rattus norvegicus with 6 samples.

Results

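Tetraspanins are small proteins that cross the membrane repeatedly and gather integrins, immune receptors and proteases into membrane patches. Cd63 is mainly found in late endosomes, lysosomes and the vesicles released from them, and Cd9, Cd63 and Cd81 are widely used as markers of extracellular vesicles. In leukocytes several members restrain or arrange receptor signalling, and Cd9 and Cd81 are known to hold back the fusion of macrophages. Here 10 tetraspanin genes were followed, namely Cd9, Cd37, Cd53, Cd63, Cd81, Cd82, Cd151, Tspan3, Tspan4 and Tspan14. They were taken by gene name from 23139 listed genes, and all 10 were present and had enough counts to be tested.

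The libraries came from primary microglia of Wistar rats, grown in mixed cultures of postnatal day 1 cortex, shaken off and sorted with beads against CD11b/c. All cultures received 100 ng/mL lipopolysaccharide (LPS), a bacterial cell wall component that activates microglia. The group LPS + siponimod received 50 µM siponimod, a modulator of sphingosine 1-phosphate receptors, which the study dissolved in DMSO. The group LPS + DMSO received the solvent DMSO without siponimod, in an amount that the study calls similar. Each group comprised 3 libraries, described by the study as biological replicates, and each library held between 38080379 and 46643859 counted reads. No culture without LPS is among these libraries, so that every value compares LPS + siponimod with LPS + DMSO. The time from stimulation to RNA extraction is not given for these libraries in the sources used here.

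The labelled cell type was checked against markers before the genes were described. All 10 microglial markers were tested, and their summed level was 7208, 6092 and 4127 counts per 1000000 reads (CPM, scaled to effective library size) in LPS + DMSO replicates 1 to 3 and 3559, 4249 and 2829 CPM in LPS + siponimod replicates 1 to 3. Csf1r, the receptor for the growth factor of microglia, had the most reads of them over all libraries together, though Itgam or Cd68 had more in 3 of the 6. Markers of lymphocytes were near 0, with 5 reads at most in any library and none of Cd3e. LPS + DMSO replicate 3 stood apart in some neural transcripts but not in others. Olig1, a transcription factor gene of the oligodendrocyte lineage, had 515 reads there against 1 and 5 in the other two LPS + DMSO libraries. Gfap, an astrocyte gene, had 88 reads there against 1 and 2. Map2, a neuronal gene, had 162 reads in LPS + DMSO replicate 3 and 115 in LPS + siponimod replicate 3, against 3 or fewer in each other library. Other genes of the oligodendrocyte and astrocyte lists were lowest in LPS + DMSO replicate 3 within its group. Cnp had 4195 reads there against 5357 and 5030, Mbp 84 against 149 and 161, and Slc1a3 574 against 1500 and 775. Results are therefore also given without LPS + DMSO replicate 3 where this matters. In bulk RNA, fewer cells of a type and less RNA per cell cannot be told apart.

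Cd9 was the member that moved farthest, and it rose. It was counted 380, 193 and 270 times in LPS + DMSO replicates 1, 2 and 3 and 6021, 4676 and 6768 times in LPS + siponimod replicates 1, 2 and 3. The groups did not overlap, and all LPS + siponimod libraries lay far above all LPS + DMSO libraries. Cd9 levels were 7.51 ± 2.63 CPM with LPS + DMSO and 133 ± 30.3 CPM with LPS + siponimod (SD, n = 3 each). The log2 fold change was 4.15 with a standard error of 0.33 (95% interval 3.35 to 4.95, edgeR quasi-likelihood adjusted p = 0.00326). In the pairs of libraries that share a replicate number the difference was 3.65, 4.37 and 4.50 on the log2 scale. By library, Cd9 had 10.3, 5.01 and 7.27 CPM with LPS + DMSO and 130, 105 and 165 CPM with LPS + siponimod. Of the 2 libraries with the most Map2 reads, LPS + DMSO replicate 3 lay between the others of its group and LPS + siponimod replicate 3 was the highest of its group.

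The members were selected on their fold changes and adjusted p-values in this same comparison, known from an earlier look at these libraries. Their p-values, adjusted over all 11977 genes tested, therefore describe the fit and are not independent evidence. A gene counted as differentially expressed (DEG) where the adjusted p did not exceed 0.05 and the level differed 1.5-fold or more. In the background, 25.3% of the genes tested were DEGs in either direction, 13.6% higher and 11.7% lower with LPS + siponimod. Among the members 4 of 10 were DEGs, with Cd9 higher and Cd82, Tspan3 and Tspan14 lower. The groups did not overlap for 5 members, 2 higher and 3 lower, compared with 49.3% of all genes tested (25.3% higher and 24.0% lower). The 3 pairs differed in the same direction for 7 members, compared with 70.8% of all genes. The median log2 fold change was -0.05 over the members and -0.02 over all genes.

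**Figure D1:**
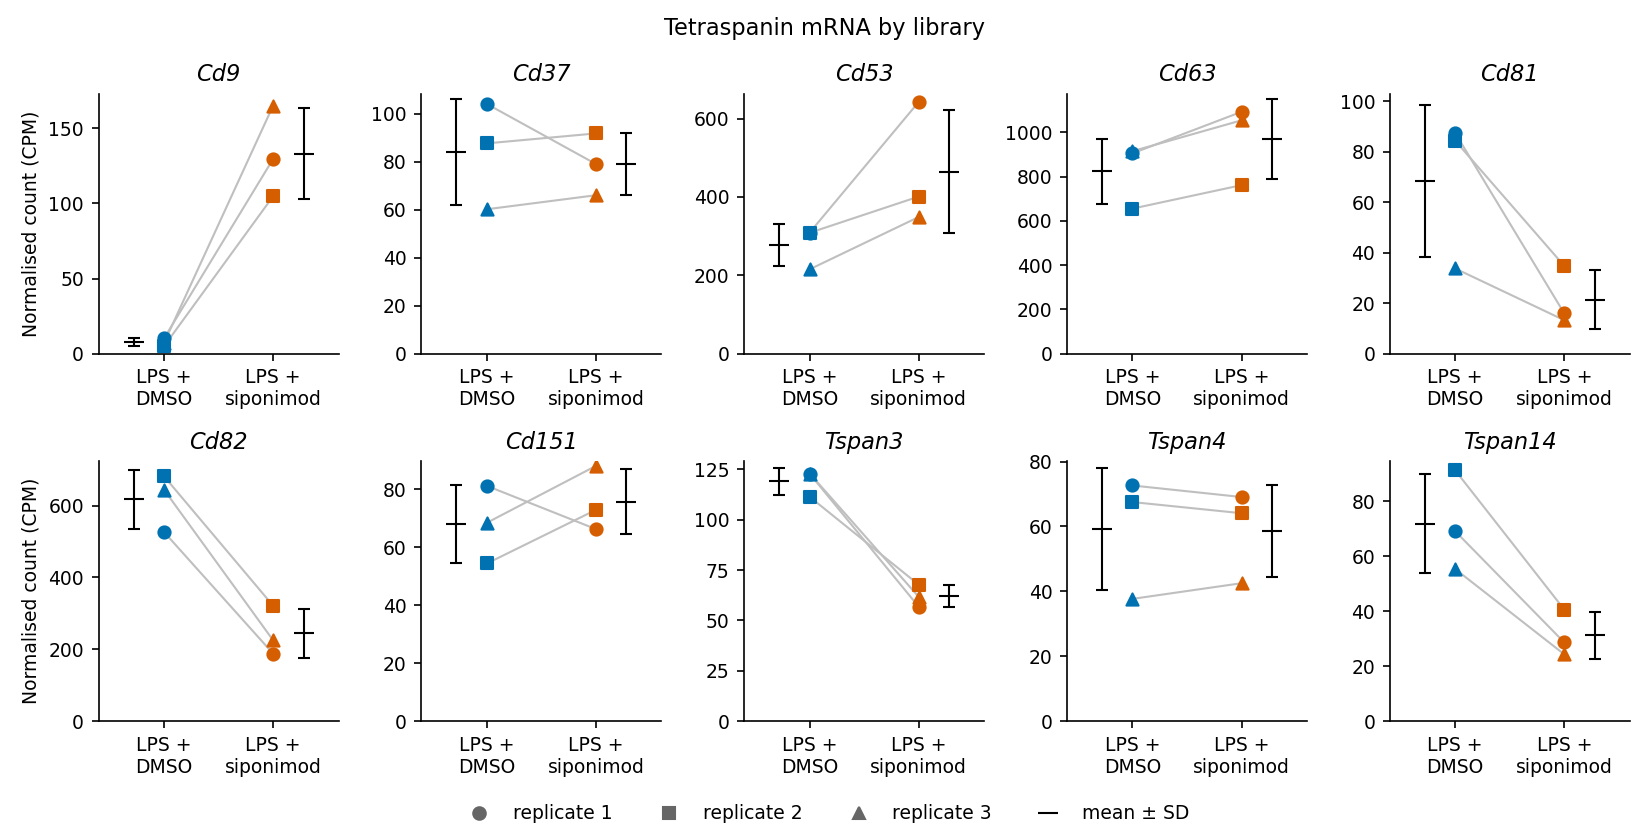
Normalised counts (CPM, vertical axes from 0, a separate scale per gene) of the 10 tetraspanin genes in each library. Symbols mark the replicate number, grey lines join libraries with the same number, and black bars give mean ± SD of 3 libraries. Cd9, Cd53 and Cd63 are higher in all 3 pairs, Cd81, Cd82, Tspan3 and Tspan14 are lower in all 3 pairs, and Cd37, Cd151 and Tspan4 go both ways.

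Cd81, a close relative of Cd9 that shares membrane partners with it, had a negative log2 fold change that did not pass the threshold. Reads numbered 3236, 3248 and 1253 with LPS + DMSO and 739, 1550 and 543 with LPS + siponimod. Replicate 3 was low in both groups, and the 33.7 CPM of LPS + DMSO replicate 3 lay just under the 34.7 CPM of LPS + siponimod replicate 2, so that the groups touched. Means were 68.5 ± 30.1 and 21.3 ± 11.7 CPM (SD, n = 3 each), and the log2 fold change was -1.68 (standard error 0.51, quasi-likelihood adjusted p = 0.0509). Cd81 was lower in each of the 3 pairs, with log2 differences of -2.45, -1.28 and -1.35. With the replicate number as a block it was a DEG (log2 fold change -1.69, quasi-likelihood adjusted p = 0.0119). It was also a DEG without LPS + DMSO replicate 3 (-2.01, adjusted p = 0.0231) and without LPS + siponimod replicate 2 (-2.24, adjusted p = 0.0303) by the same test. The other 4 fits that each left out a library gave no call, with log2 fold changes of -1.52 to -1.43 and adjusted p-values of 0.136 to 0.18.

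The ratio of Cd9 to Cd81 reads within a library does not depend on how libraries are scaled to each other. It was 0.117, 0.0594 and 0.215 in LPS + DMSO replicates 1 to 3 and 8.15, 3.02 and 12.5 in LPS + siponimod replicates 1 to 3. Each LPS + DMSO library thus held fewer Cd9 than Cd81 reads, and each LPS + siponimod library held more. Because longer transcripts yield more reads, the ratio does not say which of the transcripts was more abundant, but its shift between groups is free of length.

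The promoters of this pair are shown because Cd9 and Cd81 had the highest and the lowest fold change of the members. The sequences are the 250 bases before the annotated start in RefSeq, build GRCr8, which is a later assembly than the mRatBN7.2 build used for mapping. Cd9 lies at chr4:159975359-159975608 on the minus strand and Cd81 at chr1:207665047-207665296 on the plus strand. Both are written 5′ to 3′ along the gene, and capitals mark the GC box.
Cd9: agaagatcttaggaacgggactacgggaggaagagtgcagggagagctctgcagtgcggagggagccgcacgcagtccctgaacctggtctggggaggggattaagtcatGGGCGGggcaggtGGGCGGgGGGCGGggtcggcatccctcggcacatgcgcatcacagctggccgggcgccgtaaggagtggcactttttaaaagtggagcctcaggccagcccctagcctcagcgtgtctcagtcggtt
Cd81: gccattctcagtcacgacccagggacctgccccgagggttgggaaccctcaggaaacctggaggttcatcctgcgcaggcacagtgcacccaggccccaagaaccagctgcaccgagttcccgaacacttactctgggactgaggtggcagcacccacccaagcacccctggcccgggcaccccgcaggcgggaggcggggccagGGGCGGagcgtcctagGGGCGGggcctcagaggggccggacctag

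Both promoters were rich in G and C, with 64.0% for Cd9 and 69.2% for Cd81, against a median of 51.2% over 33469 rat promoters of this length. They held 16 and 13 CpG dinucleotides, against a median of 5. The GC box GGGCGG, on either strand, occurred 3 times in the Cd9 and 2 times in the Cd81 promoter, and 30.5% of all promoters held it. Of the 8 members with a promoter entry, 6 held a GC box, and the promoters of Cd37 and Cd53 held none and had 2 CpG dinucleotides each. Cd82 and Tspan4 were without an entry. Neither of the promoters shown held the other motifs searched on both strands. These were the CRE (TGACGTCA, in 1.59% of all promoters), the AP-1 site (TGANTCA, 6.34%), the C/EBP-ATF element (TGATGCAA, 0.693%), the NBRE (AAAGGTCA, 1.24%), the CCAAT box (CCAAT, 34%) and the E-box (CACGTG, 5.59%). No matches overlapped in the sequences shown, and a match or its absence describes only the letters of this window.

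The tetraspanins largely restricted to leukocytes, Cd37 and Cd53, and Cd82, which is also found in other cells, differed in their behaviour. Cd82, known as a suppressor of metastasis and a regulator of integrin and receptor trafficking, fell. Its levels were 526, 681 and 644 CPM in LPS + DMSO replicates 1 to 3 and 188, 321 and 225 CPM in LPS + siponimod replicates 1 to 3. The groups were well separated, and the highest LPS + siponimod library lay below the lowest LPS + DMSO library. The log2 fold change was -1.34 (standard error 0.24, quasi-likelihood adjusted p = 0.014). Without LPS + DMSO replicate 2, LPS + siponimod replicate 1 or LPS + siponimod replicate 3 the log2 fold changes were -1.24, -1.18 and -1.27 and the adjusted p-values by the same test 0.0615, 0.0609 and 0.06, so that Cd82 was no longer a DEG.

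Cd53, a panleukocyte tetraspanin, had 309, 308 and 215 CPM with LPS + DMSO and 643, 401 and 349 CPM with LPS + siponimod. All LPS + siponimod libraries lay above all LPS + DMSO libraries, with replicate 1 highest. Its log2 fold change of 0.74 (standard error 0.28) did not pass (quasi-likelihood adjusted p = 0.0946), but with the replicate number as a block it did (0.71, adjusted p = 0.0354). None of the 6 fits that each left out a library called Cd53, with adjusted p-values of 0.0997 to 0.284, and without LPS + siponimod replicate 1 the log2 fold change was 0.43. Cd37, which in lymphocytes and dendritic cells takes part in adhesion and pattern receptor signalling, had 104, 87.6 and 60.2 CPM with LPS + DMSO and 79.0, 91.7 and 66.0 CPM with LPS + siponimod. These values intermingled (log2 fold change -0.09, 95% interval -0.65 to 0.47, quasi-likelihood adjusted p = 0.794).

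Cd63, the late endosomal member, took the largest share of reads among the 10 genes in 5 of the 6 libraries, all except LPS + DMSO replicate 2. It had 905, 656 and 915 CPM with LPS + DMSO and 1093, 762 and 1055 CPM with LPS + siponimod. Replicate 2 was the low library in both groups, and the ranges overlapped. Within the pairs Cd63 was higher by 0.27, 0.22 and 0.20 on the log2 scale. The fitted change was 0.23 (95% interval -0.31 to 0.78, quasi-likelihood adjusted p = 0.462), which leaves room for a change of either sign.

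Tspan3, an endosomal and cell surface member whose function in microglia is little known, fell with the smallest spread. Its levels were 123, 111 and 123 CPM with LPS + DMSO and 56.8, 67.7 and 61.7 CPM with LPS + siponimod. The replicates of a condition differed by at most 1.19-fold between highest and lowest, against 2.62-fold for Cd81. The log2 fold change was -0.94 (standard error 0.12, quasi-likelihood adjusted p = 0.00733). Cd9 and Tspan3 were the members that remained DEGs in all 6 fits that left out a library, with adjusted p-values of at most 0.0264 and 0.0419 by the same test.

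Tspan14 belongs to the TspanC8 subgroup, whose members escort the sheddase ADAM10 out of the endoplasmic reticulum and steer it to its substrates. It had 69.1, 91.3 and 55.4 CPM with LPS + DMSO and 28.6, 40.6 and 24.3 CPM with LPS + siponimod. The replicates kept the same order in both groups, with replicate 2 highest and replicate 3 lowest, and the groups did not overlap. The pairs differed by -1.27, -1.17 and -1.19, and the fitted log2 fold change was -1.21 (standard error 0.26, quasi-likelihood adjusted p = 0.0221). It lost the call without LPS + DMSO replicate 1 (-1.22, adjusted p = 0.0604), LPS + DMSO replicate 2 (-0.99, 0.0804), LPS + siponimod replicate 1 (-1.15, 0.101) or LPS + siponimod replicate 3 (-1.05, 0.075) by the same test.

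Cd151, which binds the laminin-binding integrins, and Tspan4, known for its part in the migration organelles called migrasomes, gave no call. Cd151 had 81.2, 54.4 and 68.4 CPM with LPS + DMSO and 66.2, 72.9 and 88.0 CPM with LPS + siponimod. Tspan4 had 72.6, 67.5 and 37.7 CPM with LPS + DMSO and 69.1, 64.1 and 42.5 CPM with LPS + siponimod. For both genes the groups intermingled. The 95% interval of the log2 difference was -0.30 to 0.61 for Cd151 and -0.74 to 0.71 for Tspan4, so that changes within these bounds were not excluded.

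The summed level of the 10 genes was similar in both groups while its makeup differed. It was 2288, 2147 and 2160 CPM with LPS + DMSO and 2369, 1960 and 2089 CPM with LPS + siponimod, and the ranges overlapped. Cd9 made up 0.339 ± 0.107% of these reads with LPS + DMSO and 6.24 ± 1.44% with LPS + siponimod (SD, n = 3 each). The share of Cd82 was 28.2 ± 4.59% and 11.7 ± 4.30%. The share of Cd53 was 12.6 ± 2.33% and 21.4 ± 5.28%. These shares describe reads and not molecules, since transcript lengths of the mapped build were not used here.

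**Figure D2:**
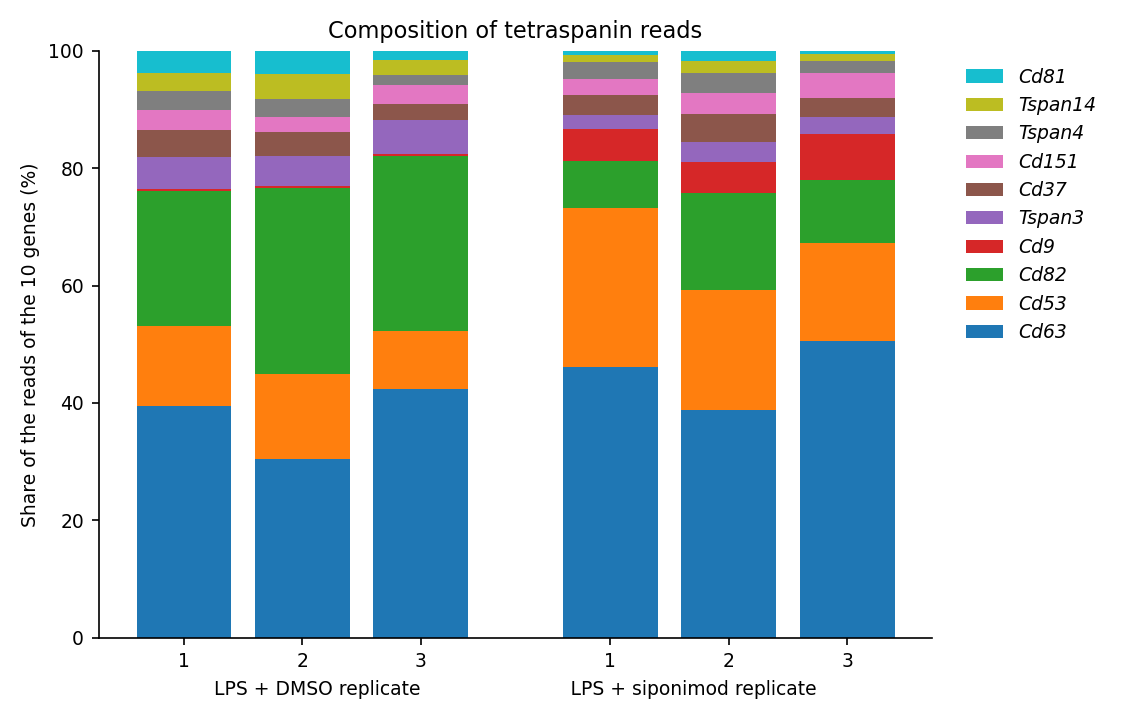
Share of the reads of the 10 tetraspanin genes (percent, stacked to 100) taken by each gene in each library. The Cd9 band is between 0.233% and 0.448% of the reads in the LPS + DMSO libraries and between 5.34% and 7.90% in the LPS + siponimod libraries, while the Cd82 band is narrower in all LPS + siponimod libraries.

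The remaining tetraspanin family comprised 23 genes, of which 21 were listed and 9 had enough counts to be tested. Of these, 2 fell by the quasi-likelihood test, Tspan9 and Tspan13, and 0 rose, compared with background shares of 11.7% and 13.6%. At an unadjusted p under 0.05 of the same test 1 was higher and 2 were lower, beside 22% and 21.7% of all genes. DESeq2 called 1 higher and 2 lower, beside 16.5% and 16.1% of all genes. The median log2 fold change of the 9 was -0.08. Tspan9, known to regulate receptors of platelets, had 117, 143 and 106 CPM with LPS + DMSO and 30.1, 57.2 and 26.4 CPM with LPS + siponimod. The log2 fold change was -1.69 (standard error 0.32, quasi-likelihood adjusted p = 0.016). It lost the call without LPS + DMSO replicate 2 (adjusted p = 0.0668), LPS + siponimod replicate 1 (0.0782) or LPS + siponimod replicate 3 (0.0533) by the same test. Tspan13, for which a role in microglia is not established, had 474, 338 and 141 reads with LPS + DMSO and 13, 49 and 75 with LPS + siponimod. Its log2 fold change was -2.98 (standard error 0.76, quasi-likelihood adjusted p = 0.0328). With the replicate number as a block the adjusted p was 0.0504, and it lay between 0.0587 and 0.104 when any single library other than LPS + DMSO replicate 3 was left out. Without LPS + DMSO replicate 3 it remained a DEG (0.0242), as it did without both libraries numbered 3 (0.0366). The log2 fold change of Tspan13 ranged from -3.61 to -2.54 with single libraries left out and was -3.96 without both libraries numbered 3.

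Among the other TspanC8 genes, Tspan5, Tspan10 and Tspan17 were tested. Tspan5 had 6264, 5730 and 6191 reads with LPS + DMSO and 8518, 5973 and 5801 with LPS + siponimod, an interval of -0.47 to 0.31 on the log2 scale once scaled to library size. Tspan10 was rare, with 11, 4 and 0 reads against 127, 29 and 15. The groups did not overlap, and its log2 fold change of 3.20 (standard error 1.23) did not pass (quasi-likelihood adjusted p = 0.0971), but with the replicate number as a block it did (3.26, adjusted p = 0.0154). DESeq2 (0.0325) and the likelihood ratio test (0.0348) also called it. None of the 6 fits that each left out a library did, and there the log2 fold change ranged from 1.90 without LPS + siponimod replicate 1 to 4.51 without LPS + DMSO replicate 1. Tspan17 was counted 58, 77 and 27 times against 79, 90 and 44 times (log2 fold change 0.16, 95% interval -0.96 to 1.28).

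Tspan2, a tetraspanin of oligodendrocytes, had 2, 3 and 35 reads with LPS + DMSO and 27, 153 and 87 with LPS + siponimod. Its highest LPS + DMSO value was in replicate 3, the library with 515 Olig1 reads. The log2 fold change was 2.50 (standard error 1.18, quasi-likelihood adjusted p = 0.154), and without that library it was 4.89 (adjusted p = 0.0225). Tspan2 was not called when any other single library was left out (adjusted p = 0.201 to 0.358), with the replicate block (0.0553) or without both libraries numbered 3 (0.0516). Tspan7, a tetraspanin of neurons among other cells, was not tested and was concentrated in replicate 3 of both groups, with 194 reads in LPS + DMSO replicate 3 and 167 in LPS + siponimod replicate 3, against at most 10 elsewhere. It was named after its values were seen. The part of neural cells in these values was not tested. Tspan6, Tspan31 and Rom1, which encodes a protein of photoreceptor outer segments, had log2 fold changes of -0.10, -0.20 and 0.00 (rounded, 95% intervals -1.93 to 1.72, -0.51 to 0.11 and -0.61 to 0.61).

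**Figure D3:**
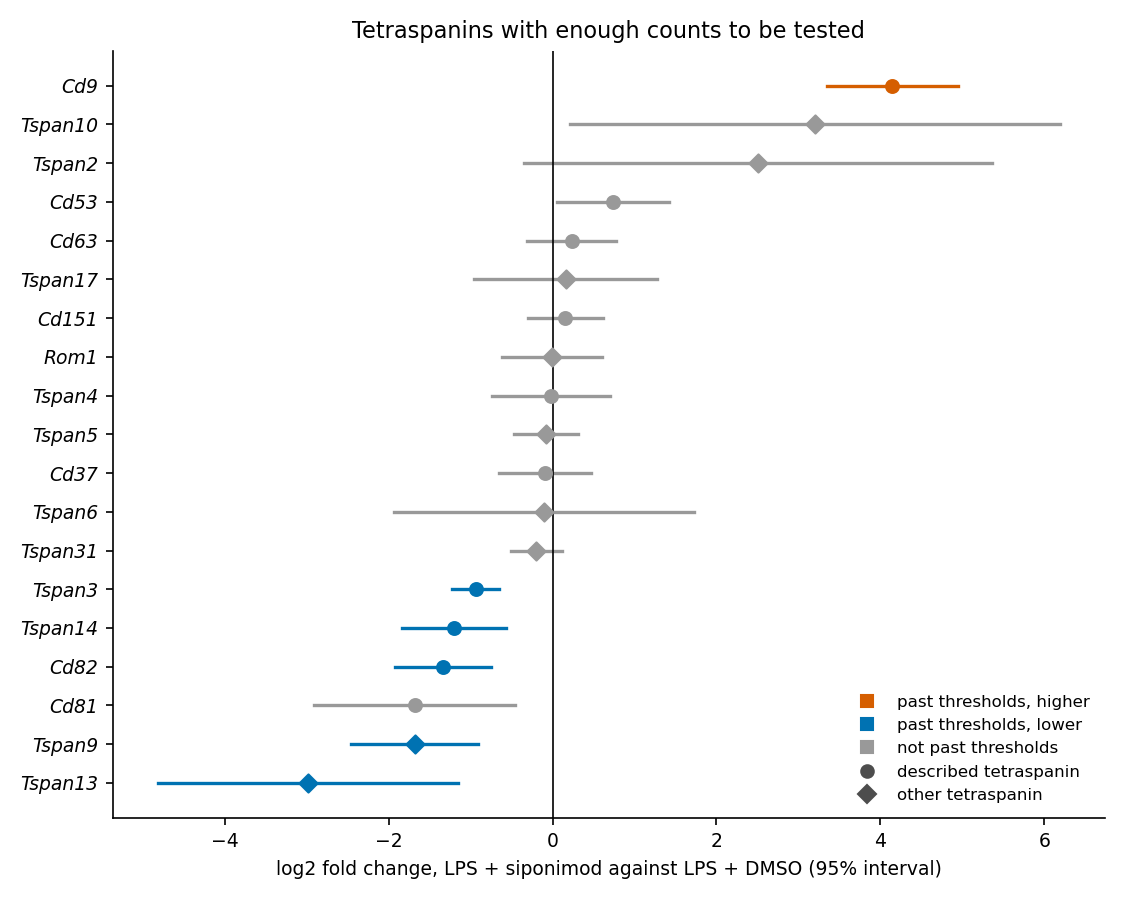
Log2 fold change of LPS + siponimod against LPS + DMSO with its unadjusted 95% interval for all 19 tetraspanins tested, circles for the 10 described genes and diamonds for the 9 others. Orange marks the DEG that is higher (Cd9) and blue the DEGs that are lower (Cd82, Tspan3, Tspan14, Tspan9 and Tspan13).

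Genes of the proteins that tetraspanins bind were examined next. Of 22 listed membrane partners 18 were tested, and 3 rose and 1 fell, beside background shares of 13.6% and 11.7%, with a median log2 fold change of 0.01. Clec7a, which encodes the beta-glucan receptor Dectin-1, known to associate with Cd37 and Cd63, had 11, 5.79 and 6.24 CPM with LPS + DMSO and 65.3, 58.2 and 47.0 CPM with LPS + siponimod. The groups were far apart, and the log2 fold change was 2.89 (standard error 0.30, quasi-likelihood adjusted p = 0.00568). Igsf3, an immunoglobulin superfamily gene related to the main partners of Cd9 and Cd81, rose from 13.3 ± 2.46 to 56.0 ± 13.7 CPM (SD, n = 3 each, quasi-likelihood adjusted p = 0.00655). The main partners themselves gave no call. Igsf8 (EWI-2) had 121 ± 33.4 and 114 ± 43.8 CPM (quasi-likelihood adjusted p = 0.85), and Ptgfrn (EWI-F) had 4.70 ± 0.722 and 3.66 ± 0.851 CPM (0.324). Both were named after their values were seen.

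Itga4, the alpha 4 integrin subunit, rose from 9.09 ± 5.34 to 50.8 ± 6.25 CPM (SD, n = 3 each, quasi-likelihood adjusted p = 0.013). It lost the call without LPS + DMSO replicate 1 (adjusted p = 0.0512) or LPS + siponimod replicate 1 (0.0519). Ifitm3, an interferon-inducible membrane protein of a family that associates with Cd81, fell from 18.6 ± 7.85 to 6.56 ± 2.39 CPM (quasi-likelihood adjusted p = 0.0369). It lost the call without LPS + DMSO replicate 1 (0.0939) or 2 (0.104) and without LPS + siponimod replicate 1 (0.136) or 3 (0.104). Of the partners, 2 were DEGs without LPS + DMSO replicate 1 and 2 without LPS + siponimod replicate 1, beside 13.9% and 6.22% of all genes.

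Of 12 genes around the sheddases ADAM10 and ADAM17, 11 were tested, and 2 rose and 0 fell by the quasi-likelihood test, with a median log2 fold change of -0.31. DESeq2 also called 2 higher and 0 lower, beside 16.5% and 16.1% of all genes. At an unadjusted p under 0.05 of the quasi-likelihood test 3 were higher and 2 lower, beside 22% and 21.7%. The risen genes, Frmd8 and Rhbdf2, encode proteins that stabilise and traffic ADAM17. Frmd8 had 141 ± 29.2 and 261 ± 7.75 CPM (SD, n = 3 each, quasi-likelihood adjusted p = 0.0171), and Rhbdf2 98.3 ± 45.9 and 211 ± 14.2 CPM (0.0466). Frmd8 lost the call without LPS + DMSO replicate 2 (0.0738) and without LPS + siponimod replicates 1 (0.0773) or 3 (0.0573). Of the 6 fits that each left out a library, Rhbdf2 was a DEG only in that without LPS + DMSO replicate 3 (0.00999), its adjusted p being 0.0827 to 0.147 without the others. Adam10 itself had 100, 113 and 87.9 CPM with LPS + DMSO and 131, 131 and 119 CPM with LPS + siponimod. These groups did not overlap, but the log2 fold change of 0.34 did not pass (standard error 0.13, quasi-likelihood adjusted p = 0.0998). Among the TspanC8 genes, Tspan14 fell, while Tspan5 had 161 ± 11.1 CPM with LPS + DMSO and 153 ± 26.7 CPM with LPS + siponimod. The log2 fold change of Tspan5 was -0.08 (quasi-likelihood adjusted p = 0.733). The difference between Adam10 and Tspan14 was not tested. Adam17 had 215, 220 and 196 CPM with LPS + DMSO and 108, 137 and 177 CPM with LPS + siponimod. These groups did not overlap either, and the log2 fold change of -0.58 did not pass (standard error 0.20, quasi-likelihood adjusted p = 0.0728). Adam10 and Adam17 were named after their values were seen.

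Of 19 genes for the formation and release of vesicles, 18 were tested, and 3 rose and 1 fell, beside the same background shares, with a median log2 fold change of 0.28 against -0.02 for all genes. Stam, a subunit of the complex that sorts ubiquitinated cargo on endosomes, rose from 37.6 ± 3.99 to 105 ± 29.7 CPM (SD, n = 3 each, quasi-likelihood adjusted p = 0.0103). Arf6, a small GTPase of endosomal recycling, rose from 214 ± 48.1 to 442 ± 8.94 CPM (0.0139). Pdcd6ip, which encodes ALIX, an adaptor that takes part with syntenin in the loading of vesicles, rose from 355 ± 35.5 to 542 ± 83.6 CPM (0.044). Smpd3, a neutral sphingomyelinase whose ceramide promotes vesicle budding, fell from 3.62 ± 2.09 to 0.571 ± 0.417 CPM (0.0412). Its log2 fold change was -2.66 and ranged from -3.45 (without LPS + siponimod replicate 2) to -2.36 with single libraries left out. Stam lost the call without LPS + DMSO replicate 2 (0.0547), and Arf6 without LPS + DMSO replicate 2 (0.0623) or LPS + siponimod replicates 1 (0.0633) or 3 (0.0508), all by the same test. Of the 6 fits that each left out a library, Pdcd6ip and Smpd3 were DEGs only in those without LPS + DMSO replicate 3 or LPS + siponimod replicate 2 (0.0413 and 0.0348 for Pdcd6ip, 0.0193 and 0.0339 for Smpd3). In the 3 lists together the share of tested genes called was 22.2% for partners, 18.2% for sheddases and 22.2% for vesicle genes, next to 25.3% of all genes.

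**Figure D4:**
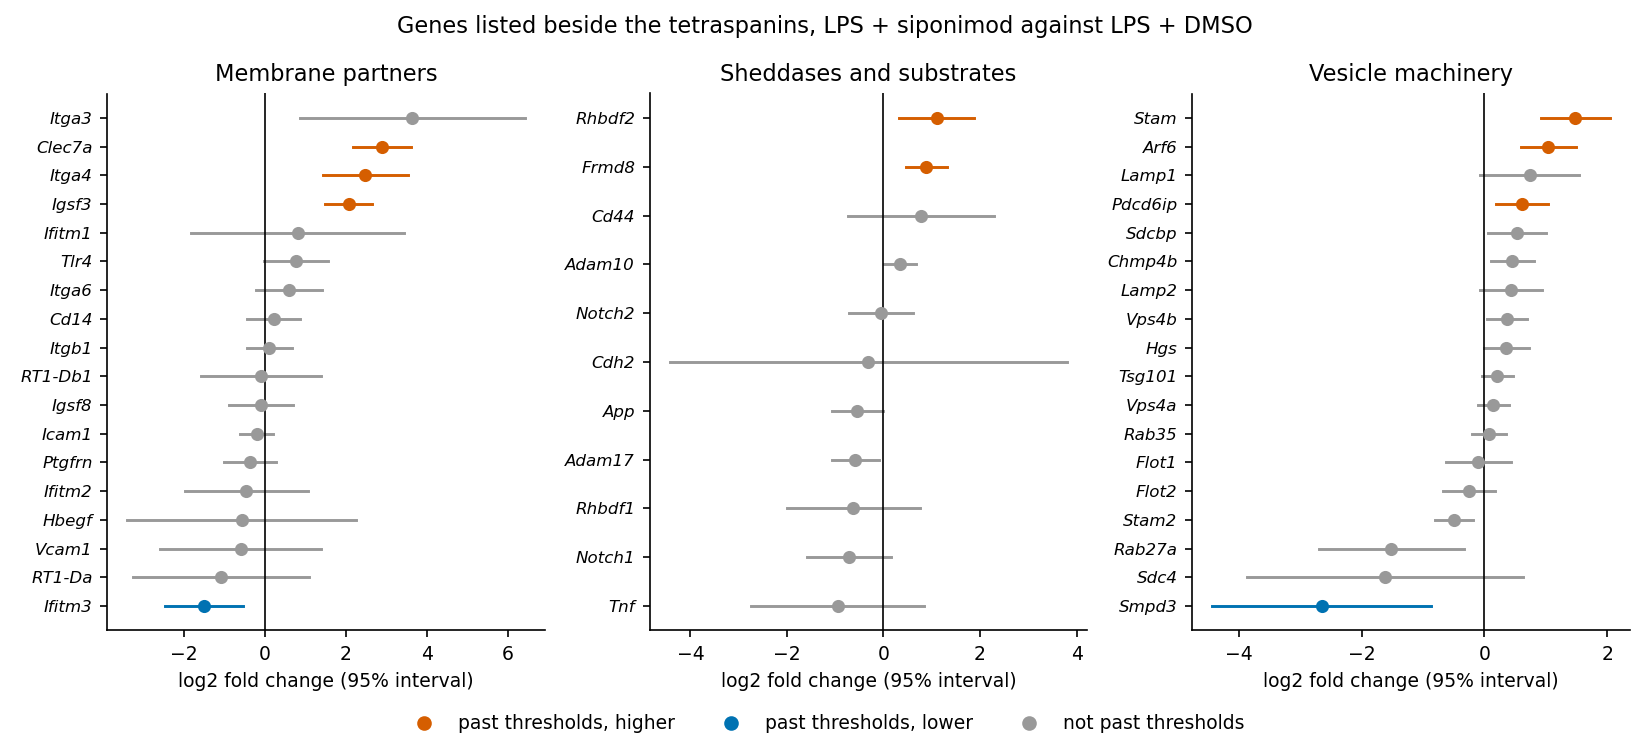
Log2 fold change of LPS + siponimod against LPS + DMSO with its unadjusted 95% interval for the tested genes of 3 lists, 18 membrane partners, 11 genes around the sheddases and 18 genes of the vesicle machinery. Orange marks DEGs that are higher and blue DEGs that are lower, and most genes of each list are grey, which means that they were not called.

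Genes with the most similar profile were sought among the other 11976 tested genes by the root mean square difference of log2 CPM over the 6 libraries, after centring each gene. For Cd9 these were Akr1b1 (0.146), which encodes aldose reductase, Dyrk3 (0.214), which encodes a protein kinase, and Nr4a2 (0.220), which encodes a nuclear receptor. Their log2 fold changes were 4.24, 4.46 and 3.85, beside 4.15 for Cd9. For Cd81 they included Bicra (0.0884), which encodes a subunit of a chromatin remodelling complex, and Usp46 (0.0922), which encodes a deubiquitinase. Their log2 fold changes were -1.60 and -1.77, beside -1.68 for Cd81.

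Markers of other cell types were compared with these genes, since astrocytes, oligodendrocyte precursors and fibroblasts express Cd9, Cd81 and Cd151 as well. Of 10 markers of the oligodendrocyte lineage 4 were tested, and the summed level of the list was 150, 136 and 149 CPM with LPS + DMSO and 49.2, 67.8 and 60.0 CPM with LPS + siponimod, most of it from Cnp. Astrocyte markers summed to 42.5, 21.0 and 21.7 CPM against 27.5, 26.8 and 57.7 CPM, with most reads from Slc1a3, with 3 of 7 tested. Neuronal markers summed to 1.67, 1.01 and 11.3 CPM against 4.37, 5.76 and 14.9 CPM, led by Tubb3. Fibroblast markers summed to 6.05, 4.75 and 3.98 CPM against 11.9, 4.64 and 8.66 CPM, with most reads over all libraries together from Dcn, which had 3, 0 and 4 reads against 456, 49 and 178. Of the 5 fibroblast markers tested, Dcn and Col1a2 (0.26) had positive log2 fold changes. Col1a1 (-0.89, groups not overlapping, quasi-likelihood adjusted p = 0.0526), Col3a1 (-0.67) and Pdgfrb (-0.65) had negative ones, and none of these 3 was a DEG by that test. DESeq2 called 1 of the 5 higher and 1 lower, beside 16.5% and 16.1% of all genes. All but Dcn were named after their values were seen. Endothelial markers summed to 154, 201 and 81.5 CPM against 36.0, 77.8 and 24.2 CPM, led by Cdh5, while Kdr, a defining gene of endothelium, had no read in any library. The lymphocyte list was led by Cd79a. The oligodendrocyte and endothelial sums were lower with LPS + siponimod in all 3 pairs, and their groups did not overlap. The neuronal sum was higher in all 3 pairs, with replicate 3 highest in both groups, and the astrocyte and fibroblast sums went both ways. By the quasi-likelihood test Mbp (named after its values were seen) and Dcn rose and Cnp fell, and no tested astrocyte, neuronal or endothelial marker was a DEG (at an unadjusted p under 0.05, 0 of 3, 0 of 1 and 2 of 2, the latter lower, and DEGs by DESeq2 0, 0 and 2). Among the microglial markers 3 of 10 fell, namely Aif1 (log2 fold change -1.88), Itgam (-0.87) and Cx3cr1 (-3.65), which were named after their values were seen, and 0 rose by the quasi-likelihood test, beside 11.7% and 13.6% of all genes. At an unadjusted p under 0.05 of that test 1 was higher and 5 were lower, beside 22% and 21.7%, and DESeq2 likewise called 1 higher and 5 lower, beside 16.5% and 16.1%. With the replicate number as a block Csf1r (log2 fold change -1.33, quasi-likelihood adjusted p = 0.0375) and Cdh5 (-1.48, 0.0142) were lower and Tubb3 (1.59, 0.0316) was higher, all past the threshold. The part of these cell types in the values of the tetraspanins was not tested.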

How the data were processed

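Bulk mRNA of primary rat microglia was sequenced as single reads in 6 libraries. The authors demultiplexed with bcl2fastq (version 2.20.0.422, per the labels), trimmed the reads, mapped them to mRatBN7.2 in the CLC Genomics Workbench and deposited total read counts per gene without normalization. Whether strand was used, and how reads with several matches were counted, is not given in the sources used here, so that values of overlapping or near-identical genes are uncertain. A row without name and value in 1 file was left out.

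The tests used edgeR (version 4.0.16) under R (version 4.3.3). Of 23139 genes, filterByExpr (minimum count 10, minimum total 15) kept 11977. TMM normalization, glmQLFit and glmQLFTest were applied with the condition as the only term, with Benjamini-Hochberg adjustment over all genes tested. DEGs were defined by an adjusted p not above 0.05 together with a 1.5-fold difference or more. CPM use effective library sizes, and log2 CPM a prior count of 2. The standard error is the size of the log2 fold change divided by the square root of F. With 3 libraries against 3 an exact permutation test cannot go below p = 0.10. The study calls the libraries biological replicates and states for its data in general that n counts independent experiments. It does not tie the library numbers to preparations, and p-values measure the spread between these libraries. A single read corresponds to 0.0215 to 0.0270 CPM.

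Same-numbered libraries deviated together from their group means (correlations over genes 0.42, 0.545 and 0.611, against -0.534 to 0.0856 for other combinations), so that the numbers were treated as pairs and added to the model as a block in an alternative fit. Alternatives were RLE normalization, DESeq2 (version 1.42.0), the likelihood ratio test, no filter, the block and each library left out. A fit without both libraries numbered 3 was added after seeing the data. The procedure was tested on simulated data.

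The members and lists were chosen with earlier results of these data known. The lists held other tetraspanins, membrane partners, sheddase genes, vesicle genes and markers of 7 cell types. Named were all members, all other tetraspanins tested, of each list of partner, sheddase and vesicle genes up to 3 DEGs per direction with the smallest p, of each marker list its most abundant gene and genes without reads, and the 3 genes with the most similar profile to Cd9 and to Cd81, of which 1 is not reported here. Olig1, Gfap, Map2 and Cd68 were named after their values were seen. Promoter sequences are from RefSeq. Tspan16, Tspan19, Cd36 and Cldn5 were not analysed here.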

Additional observations from a re-analysis of the deposited data

How the results depend on the processing

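The log2 fold change of Cd9 lay between 3.94 and 4.46 and that of Tspan3 between -1.01 and -0.885 in all alternatives, and both stayed DEGs. With single libraries left out, the quasi-likelihood test gave 651 to 3713 DEGs among all genes (651 without LPS + DMSO replicate 2, 783 without LPS + siponimod replicate 1, 1035 without LPS + siponimod replicate 3 and 1743 without LPS + DMSO replicate 1). The number of DEGs was then 2 to 5 of the 10 members, 0 to 3 of the other tetraspanins, 2 to 5 of the partners, 0 to 3 of the sheddase genes and 0 to 5 of the vesicle genes. Members fell to 2 without LPS + DMSO replicate 2, LPS + siponimod replicate 1 or LPS + siponimod replicate 3. Of all genes, 5.16% to 30.3% were DEGs in the fits that each left out a library. At an unadjusted p under 0.05 of the same test, the lists that reached 0 held 2 to 3, 2 to 4 and 6 to 10 genes in these fits, beside 29.2% to 49.3% of all genes. Without the filter 1 sheddase gene and 2 vesicle genes were called, beside 14.9% of 17057 genes. With the replicate block 4074 genes (34%) and 6 members were DEGs, Cd53 and Cd81 being added, Tspan10 was gained and Tspan13 lost, and among the other named genes Bicra (adjusted p = 0.0185), Csf1r, Tubb3 and Cdh5 were gained. No other call of a gene named in the text and tested changed with the block.

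Without both libraries numbered 3, Cd81 was a DEG (adjusted p = 0.0474) and Cd82 (0.0623), Frmd8 (0.0634) and Pdcd6ip (0.095) were not. DESeq2 called Cd53 (0.0403) and Cd81 (0.00376), and RLE normalization (0.0493) and the likelihood ratio test (0.00616) called Cd81, with 6, 5 and 5 members called, beside 32.5%, 25.6% and 29.8% of all genes. The cause of these changes was not tested. Signs changed only for genes with no call. With single libraries left out the log2 fold change ranged from -0.28 to 0.11 for Cd37, -0.26 to 0.17 for Tspan4, -0.24 to 0.0036 for Tspan5, -0.89 to 0.44 for Tspan6, -0.16 to 0.48 for Tspan17 and -0.165 to 0.077 for Rom1. It was 0.0082 for Tspan4 with the replicate block, 0.00094 for Tspan5 without both libraries numbered 3, and 0.0015 and 3.07e-06 for Rom1 with RLE and DESeq2. The mean ratio of Cd9 to Cd81 reads was 0.0884 to 0.166 with LPS + DMSO and 5.58 to 10.3 with LPS + siponimod when single libraries were left out.

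Each member had at least 193 reads in every library. For Tspan2, Tspan10 and the untested tetraspanins the counts themselves were small.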
